A study of Mus musculus with 5 samples.

Results

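The genes described here encode nucleolar proteins that build ribosomes. The list holds 48 genes, named by symbol, and 44 of them were measured by a probe set that the array annotation assigns to a single gene. Npm3, Nat10, Nob1 and Mrto4 had no such probe set and were not analysed here. Where a gene had several probe sets, the one with the highest average signal was taken, and the 44 genes stand among 12393 genes taken in the same way. The arrays came from 3 intestinal tumours of Apc1638N mice on the C57Bl6/J background (tumours 16, 18 and 2) and from normal epithelial cells of the intestine of C57Bl6/J mice without the allele (wild types 36 and 62). All samples were labelled as male and 8 months old. RNA was prepared from cells cut out of tissue with a laser in both groups, and the labels call the tumour samples tumour and only the wild-type samples epithelial cells. Apc1638N mice carry a mutant allele of Apc, a brake on Wnt signalling, in the germline, so every cell of the tumour-bearing animals carries it and not the tumour alone, and normal mucosa of Apc1638N mice was not analysed here. Whether the samples are from 5 different animals is not stated, and the p-values reflect only how far these samples spread, which may be technical.

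Ribosomes are assembled in the nucleolus, where RNA polymerase I transcribes the precursor of most ribosomal RNA. Small nucleolar ribonucleoproteins (snoRNPs) guide its chemical modification, and assembly factors, helicases and GTPases cut, fold and package it into the precursors of the small and the large subunit. In the intestine this machinery is most active in the dividing cells of the crypts. The transcription factor Myc, a target of Wnt signalling, is known to bind E-box elements near many genes of this kind.

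For that reason the promoters were searched for the E-box CACGTG, which reads the same on both strands. RefSeq promoter entries of build GRCm38.p6, covering 250 bases before and 50 bases after each gene start, were matched by symbol for 37 of the 44 measured genes. The motif stood in the promoters of 8 of these 37 genes (21.6%), against 1069 of 9887 genes of the array with an entry (10.8%), and 8.09% of all genes in the table. Median GC content was 59.3% in the promoters of the listed genes and 59.0% in those of all array genes. Below are 30-base windows around each match, 5′ to 3′ on the strand of the gene, with the E-box in capitals. They are shown so that the flanks of the motif can be compared between genes. The windows lie at chr1:34439696-34439725 (plus strand, Imp4), chr6:125131811-125131840 (plus, Nop2), chr11:72441347-72441376 (plus, Mybbp1a), chr11:3963965-3963994 (plus, Pes1), chr11:74898092-74898121 (plus, Tsr1), chr17:71616220-71616249 (plus, Wdr43), chr10:13193092-13193121 (minus, Ltv1) and chr11:82908355-82908384 (minus, Nle1).
Imp4: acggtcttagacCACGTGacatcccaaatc
Nop2: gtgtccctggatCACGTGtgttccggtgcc
Mybbp1a: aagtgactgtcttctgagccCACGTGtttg
Pes1: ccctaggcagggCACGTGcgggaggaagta
Tsr1: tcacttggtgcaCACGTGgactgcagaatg
Wdr43: cgcccgggcgaaCACGTGgctgccgcggag
Ltv1: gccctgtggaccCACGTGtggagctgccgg
Nle1: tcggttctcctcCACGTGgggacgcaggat
In Imp4 and Nop2 the motif lay upstream, starting at positions -121 and -60. In the other 6 genes it lay just inside the transcribed part, between position 3 (Pes1) and position 41 (Mybbp1a), counted from 1 at the gene start. A match is a string of letters and not a shown binding site.

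Signals were log2 values as deposited, with array medians between 6.81 and 6.87. Of 8 epithelial markers, Krt18 (log2 change 2.44) and Krt19 (1.20) were higher and Vil1 (-1.26) was lower in tumours in limma. The other 5 did not pass. Krt8 averaged 13.50 in tumours and 13.08 in wild types, Epcam 11.01 in tumours and 11.49 in wild types, and Cdx1 was dimmer, at 7.41 in tumours and 7.16 in wild types. Of 10 measured markers of absorptive enterocytes, 7 were lower in tumours, led by Slc2a2 (-5.41), Enpep (-5.41) and Mme (-4.52), and the mean level of the list lay between 7.33 and 8.84 on the tumour arrays and between 11.86 and 12.04 on the wild-type arrays. Of 11 measured markers of dividing cells, 7 were higher in tumours, led by Mki67 (1.27), Cdk1 (1.18) and Top2a (1.17). The other 4, Mcm6 (1.16), Mcm3 (0.37), Pcna (0.15) and Bub1 (0.13), did not pass. Mean levels of the list were 8.09 to 8.16 in tumours and 7.18 to 7.46 in wild types. Of all genes, 11.3% were higher and 10.5% lower in tumours in limma. In RNA of pooled cells, more cells of a type and more RNA per cell cannot be told apart. The signal at the 3′ end of beta-actin exceeded that at its 5′ end by 4.0 to 4.25 on the tumour arrays and by 2.51 to 3.32 on the wild-type arrays, and for Gapdh by 4.50 to 4.83 and by 3.67 to 4.01. The part of cell composition and RNA integrity in the differences below was not tested.

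Genes for ribosome assembly were higher in tumours than in normal epithelium. Of the 44 measured genes, 30 rose in tumours (68.2%), where 11.3% of all genes did, and 0 fell, where 10.5% of all genes did. The list was chosen with earlier results of these data known, so these shares are a description. All 44 changes were above 0, where 51.4% of all genes had such a change. The threshold was an adjusted p of 0.05 in limma over all 12393 genes, which 21.7% of them passed in either direction. The median log2 change of the 44 genes was 0.75, and that of all genes 0.00. The changes of the genes that rose ran from 0.27 (Rrp9) to 2.27 (Nhp2). In 14 of the 30 the rise was 2-fold or more, a size that 3.45% of all genes reached with a call. All 3 tumours lay above both wild types in 43 of the 44 genes, where 27.0% of all genes showed this order, and Ebna1bp2 was the exception. With 5 arrays an exact permutation test of a single gene cannot give a two-sided p below 0.1, so the calls rest on limma's model of the errors.

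**Figure D1:**
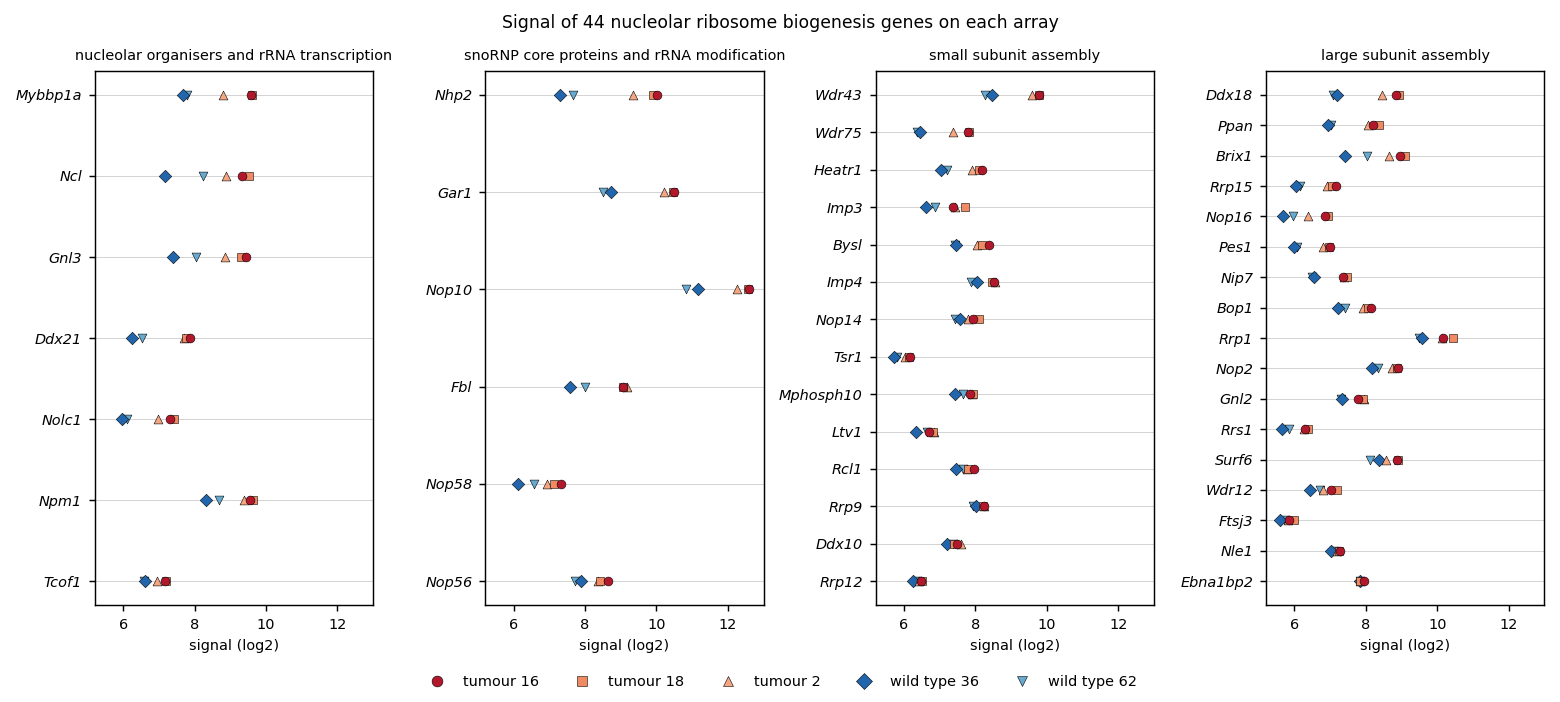
Each row is a gene and each symbol an array, with the signal on a log2 axis, in 4 panels by role. Red to orange symbols are the 3 tumours and blue symbols the 2 wild types, and in every row except Ebna1bp2 the tumour symbols lie to the right.

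Genes for proteins that organise the nucleolus and act on rRNA transcription were among those with the larger changes. Of 7 measured genes, 6 rose, with a median log2 change of 1.40. Mybbp1a encodes a nucleolar protein that binds the p53 and Myb proteins and takes part in making rRNA. It had signals of 9.58, 9.60 and 8.78 in tumours 16, 18 and 2, against 7.66 and 7.79 in wild types 36 and 62, a log2 change of 1.59 (SE 0.30, limma adjusted p = 0.0312). Tumour 2 was clearly below the other tumours, and still above both wild types. Gnl3 encodes nucleostemin, a GTPase known from stem and tumour cells. Its signals were 9.44, 9.31 and 8.84 in tumours 16, 18 and 2, against 7.39 and 8.03 in wild types 36 and 62, a log2 change of 1.49 (SE 0.29, limma adjusted p = 0.0332). Ddx21, a helicase that links RNA polymerase I to rRNA processing, had 7.88, 7.77 and 7.70 in tumours 16, 18 and 2, against 6.23 and 6.52 in wild types 36 and 62. Its log2 change of 1.40 (SE 0.11, limma adjusted p = 0.00654) had a small error, and all tumours lay far above both wild types.

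The remaining genes of this role also had changes above 0. Nolc1, a chaperone of snoRNPs, rose by 1.20 (SE 0.16). Its wild-type mean of 6.03 lay below the 25th percentile of signals on at least 1 array. The same held for the wild-type means of Tsr1, Nop16, Pes1, Rrs1 and Ftsj3 below. At such low signals the changes of these 6 genes are given with no fold. Nolc1 is nevertheless among the 14 genes counted above as rising 2-fold or more. Npm1, the histone chaperone nucleophosmin, rose by 1.0 (SE 0.14), a 2.00-fold difference, and Tcof1, a factor for transcription of rRNA genes, by 0.51 (SE 0.08). Ncl encodes nucleolin, an abundant RNA-binding protein of the nucleolus, and had 9.31, 9.53 and 8.87 in tumours 16, 18 and 2, against 7.17 and 8.23 in wild types 36 and 62. The groups did not overlap, yet the wild types were far apart (SD 0.75), and the log2 change of 1.54 (SE 0.39) missed the threshold with a limma adjusted p of 0.0629. The other 3 probe sets of Ncl had changes of 0.90, 0.89 and 0.98, with adjusted p over probe sets of 0.0506, 0.0301 and 0.0145 in limma.

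Core proteins of the snoRNPs included the gene with the largest change of all 44. Of 6 measured genes, 5 rose, with a median log2 change of 1.39. The H/ACA snoRNPs, which convert uridine to pseudouridine in rRNA, contain Nhp2, Gar1 and Nop10 beside the catalytic subunit dyskerin. Nhp2 had 10.01, 9.89 and 9.34 in tumours 16, 18 and 2, against 7.30 and 7.66 in wild types 36 and 62, a 4.81-fold difference (log2 change 2.27, SE 0.25, limma adjusted p = 0.0113). Gar1 had 10.49, 10.46 and 10.21 in tumours 16, 18 and 2, against 8.73 and 8.52 in wild types 36 and 62, a 3.40-fold difference (log2 change 1.76, SE 0.12, limma adjusted p = 0.00541). Nop10 had 12.60, 12.55 and 12.26 in tumours 16, 18 and 2, against 11.16 and 10.84 in wild types 36 and 62, a 2.78-fold difference (log2 change 1.47, SE 0.15, limma adjusted p = 0.0103). In all 3 genes tumour 2 was the lowest tumour, and the gap to the nearest wild type was wider than the spread within either group.

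The C/D snoRNPs, which add methyl groups to ribose in rRNA, were represented by their methyltransferase and both scaffold proteins. Fbl, the methyltransferase fibrillarin, averaged 9.10 ± 0.06 in tumours (SD, n = 3) and 7.79 ± 0.31 in wild types (SD, n = 2), and its log2 change was 1.31 (SE 0.15, limma adjusted p = 0.0114). It was the only gene of this role in which tumour 2 was the highest tumour. Nop56 rose by 0.67 (SE 0.10). Nop58 differed by 0.78 (SE 0.20, adjusted p = 0.0600 in limma, 95% interval 0.25 to 1.31) and did not pass.

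Factors for the small subunit had smaller changes. Of 14 measured genes, 8 rose, with a median log2 change of 0.41. The 3 largest rises were those of Wdr43, Wdr75 and Heatr1, subunits of the UTP-A complex that joins transcription of the rRNA precursor to its first processing steps. Wdr43 had 9.79, 9.78 and 9.58 in tumours 16, 18 and 2, against 8.46 and 8.28 in wild types 36 and 62, a log2 change of 1.35 (SE 0.10, limma adjusted p = 0.00582). Wdr75 had 7.79, 7.81 and 7.37 in tumours 16, 18 and 2, against 6.45 and 6.38 in wild types 36 and 62, a log2 change of 1.25 (SE 0.16, limma adjusted p = 0.0151). Heatr1 had 8.19, 8.10 and 7.92 in tumours 16, 18 and 2, against 7.04 and 7.19 in wild types 36 and 62, a log2 change of 0.95 (SE 0.10, limma adjusted p = 0.0109). The wild types lay well below all tumours in each. Imp3 and Imp4 are partners of Mphosph10 in a complex on the U3 snoRNA, and rose by 0.75 (SE 0.14) and 0.55 (SE 0.06), while Mphosph10 differed by 0.35 (SE 0.08) with an adjusted p of 0.0502 in limma. Bysl, the assembly factor bystin, rose by 0.75 (SE 0.11), Tsr1, which acts in late maturation, by 0.36 (SE 0.06), and the U3 snoRNP protein gene Rrp9 by 0.27 (SE 0.04).

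Factors for the large subunit lay between these roles. Of 17 measured genes, 11 rose, with a median log2 change of 0.71. The helicase gene Ddx18 had 8.86, 8.92 and 8.45 in tumours 16, 18 and 2, against 7.18 and 7.07 in wild types 36 and 62, a 3.06-fold difference (log2 change 1.61, SE 0.17, limma adjusted p = 0.0101). Ppan, a factor of early large-subunit precursors, had 8.19, 8.36 and 8.07 in tumours 16, 18 and 2, against 6.94 and 7.03 in wild types 36 and 62 (log2 change 1.22, SE 0.10, limma adjusted p = 0.00690). Brix1, a relative of Ppan in the same family of rRNA-binding proteins, had 8.95, 9.09 and 8.64 in tumours 16, 18 and 2, against 7.42 and 8.04 in wild types 36 and 62 (log2 change 1.16, SE 0.25, limma adjusted p = 0.0414). The wild types of Brix1 were the farthest apart of this role (SD 0.44), and its adjusted p was the highest of the 30 calls.

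Of the 3 subunits of the PeBoW complex, which processes rRNA of the large subunit, Pes1 rose by 0.90 (SE 0.07) and Bop1 by 0.72 (SE 0.10), while Wdr12 differed by 0.43 (SE 0.16) with an adjusted p of 0.135 in limma. Nip7, an RNA-binding factor, averaged 7.40 ± 0.06 in tumours (SD, n = 3) and 6.52 ± 0.04 in wild types (SD, n = 2). Its change of 0.88 (SE 0.05) had the lowest adjusted p of the 44 genes, 0.00497 in limma. Further rises were those of Rrp15 (0.94, SE 0.10), Rrp1 (0.71, SE 0.12), the rRNA cytosine methyltransferase gene Nop2 (0.58, SE 0.09), the GTPase gene Gnl2 (0.57, SE 0.07) and Rrs1 (0.56, SE 0.08), a factor for incorporating a small rRNA into the subunit.

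**Figure D2:**
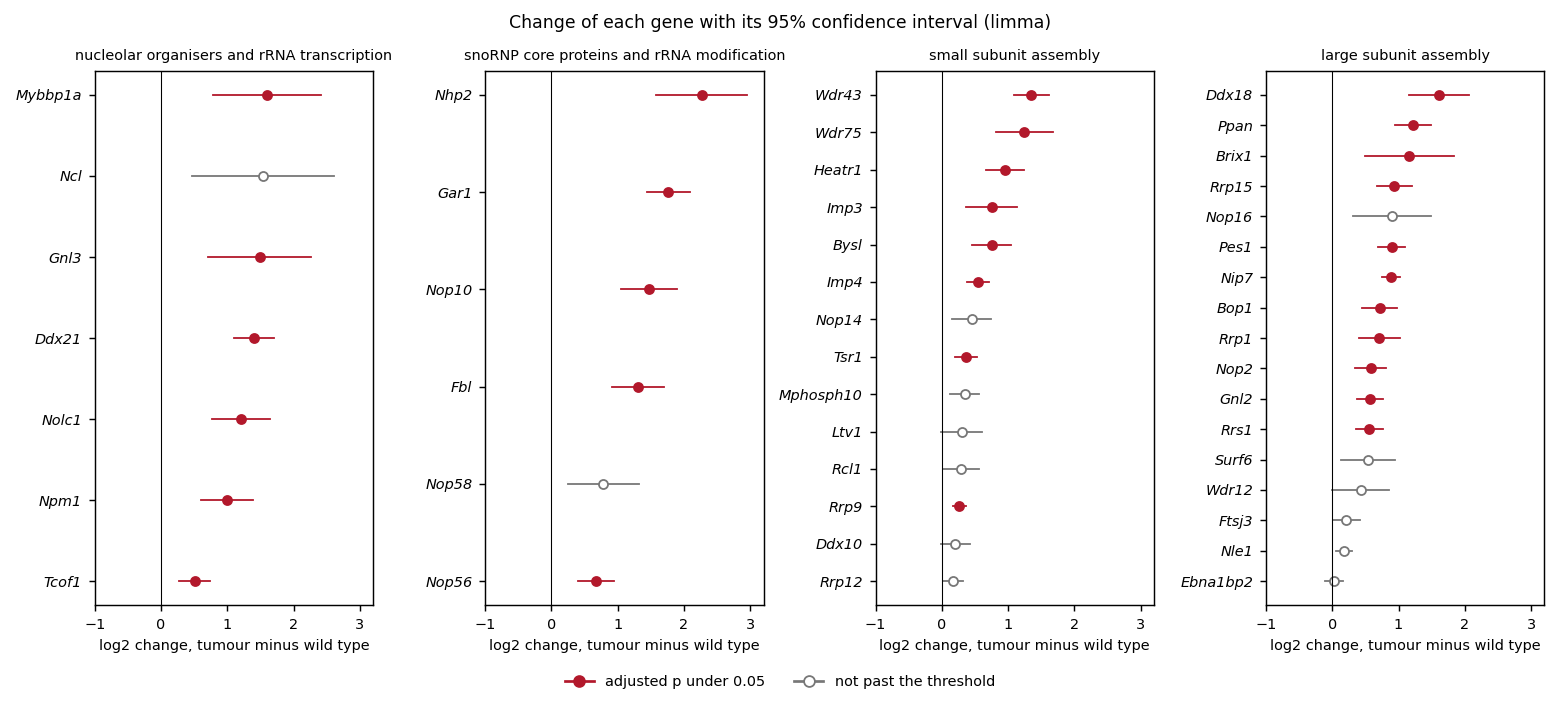
Points are log2 changes, tumour minus wild type, and lines their 95% confidence intervals from limma, in 4 panels by role. Filled red points passed an adjusted p of 0.05, and open grey points did not, among them Ncl with an interval of 0.47 to 2.61.

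The 14 genes that did not pass had changes from 0.03 to 1.54, and 11 of them had an unadjusted p below 0.05. Over all 44 genes 41 had one, where 36.4% of all genes did. The 95% interval spanned 0 in 3 of them, namely Ltv1 (-0.01 to 0.60), Ddx10 (-0.01 to 0.42) and Ebna1bp2 (-0.10 to 0.16). Besides Ncl, Nop58, Mphosph10 and Wdr12, the others were Nop14 (0.45), Rcl1 (0.29) and Rrp12 (0.17) for the small subunit, and Nop16 (0.90), Surf6 (0.54), Ftsj3 (0.21) and Nle1 (0.17) for the large subunit. A change of the size seen for Nhp2 lay outside the interval of every one of these genes except Ncl.

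Probe sets of a gene did not always give the same size of change. Among the 44 genes, 26 had more than 1 probe set, and all 32 further probe sets had a change above 0. Of these, 15 were higher over probe sets in limma and 0 were lower, where 9.58% of all probe sets were higher and 8.72% lower, and 25 showed a smaller change than the probe set used. For many genes that rose, a further probe set differed by over 1.5 times. It gave 0.57 for Mybbp1a, 0.48 for Ddx21, 0.10 for Nolc1 (another gave 1.0), 0.80 for Fbl, 0.34 for Wdr75, 0.00 for Heatr1, 0.03 for Imp4, 0.12 for Brix1, 0.09 for Pes1, 0.33 for Nip7 and 0.03 for Rrp1, and those of Nolc1, Heatr1, Imp4, Brix1 and Pes1 held values tied within a group. Larger changes came from further probe sets of Npm1 (1.68), Nop56 (1.60), Gnl2 (1.10, with 0.07 from a second) and Tcof1 (0.98), and for Ddx18 they gave 0.82 and 0.20. Ebna1bp2, a scaffold of large-subunit precursors, was flat in its brighter probe set, where 3 of 5 arrays held the same value, and differed by 0.77 in the other (adjusted p over probe sets 0.0235 in limma). Probe sets whose names end in _a_at, _s_at or _x_at (suffixed probe sets) were also left out. Ddx21 (0.48, adjusted p = 0.0906) and Ddx18 (0.82, adjusted p = 0.0514), both measured by _a_at sets, then lost their calls in limma. Of 39 measured genes 24 rose, where 8.26% of all genes did. Gar1, Npm1, Gnl3, Rrp1 and Tsr1 had only suffixed probe sets and dropped out.

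Tumour 2 had the smallest increase. The median difference from the wild-type mean over the 44 genes was 0.83 in tumour 16, 0.85 in tumour 18 and 0.60 in tumour 2. Tumour 2 was the lowest of the tumours in 34 of the 44 genes and in 4377 of all 12393 genes. The same held in 778 of the 1395 genes called higher over the whole table. Wild type 62 was above wild type 36 in 28 of the 44, in 6232 of all 12393 genes (50.3%) and in 762 of the 1395 genes called higher. Markers of connective tissue also differed between the tumours. Of 10 measured fibroblast genes, 1 (Dcn) rose in limma, where 11.3% of all genes did. All 10 were highest in tumour 18, as were 4059 of all 12393 genes, and 8 were lowest in tumour 2, as were 4377. The mean level of that list was 8.32, 9.08 and 7.63 in tumours 16, 18 and 2, against 7.14 and 6.91 in wild types 36 and 62, and Lum was below the 25th percentile in both groups. Against wild types the T cell list ran the other way, with 3 of 7 genes (Ccl5, Gzma and Cd3g) lower in tumours, where 10.5% of all genes were. Its mean levels were 6.34 to 6.54 in tumours and 7.52 to 7.74 in wild types. Among the tumours, 5 of the 7 T cell genes were highest in tumour 18, as were 4059 of all 12393 genes. The part of both marker lists in the differences between tumours was not tested.

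Calls depended on which arrays were present and on whether tied probe sets were kept, while the median change moved little. The calls of single genes given last apply only to the fits without tied probe sets, and no share of all genes stands beside them. Among the 44 genes, 9 rose without tumour 16 (2.90% of all genes in that fit), 9 without tumour 18 (4.28%), 30 without tumour 2 (10.4%), 7 without wild type 36 (1.96%) and 0 without wild type 62 (0%). The median change stayed between 0.72 and 0.84 in these fits. In the last of these fits 38 of the 44 genes had an unadjusted p below 0.05 in limma, where 31.3% of all genes did, and 0 genes of the whole table were called. Once tied probe sets were also left out, the same fits gave 27, 29, 36, 24 and 28 genes, where 10.6%, 12.2%, 19.2%, 9.47% and 9.49% of all genes were higher. Of the 30 genes, 21 were called in all 5 of these fits, among them Nhp2, Gar1, Nop10, Fbl, Ddx21, Wdr43, Wdr75, Heatr1, Ddx18, Ppan and Nip7. Mybbp1a and Brix1 were called in 3 of them, Tcof1 in 2, Tsr1 in 1 and Rrp9 in 0.

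**Figure D3:**
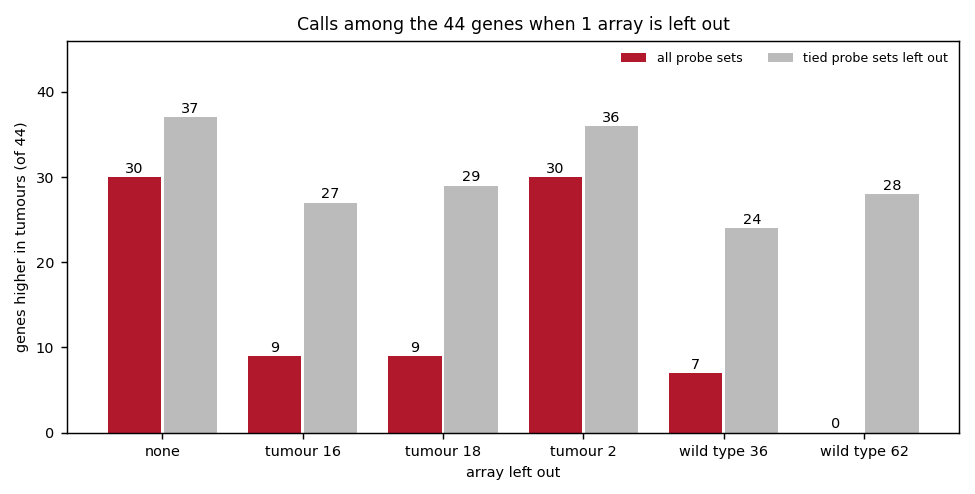
Bars count the genes of the 44 that were higher in tumours when no array or 1 array was left out, with all probe sets (red) and without tied probe sets (grey). The red bars run from 0 (without wild type 62) to 30, and the grey bars from 24 (without wild type 36) to 37.

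Ribosome assembly genes outside the list rose in part. Of 102 measured genes in 6 lists, 36 rose (35.3%) and 1 fell in limma, where 11.3% of all genes rose and 10.5% fell. Their median log2 change was 0.34, and that of all genes 0.00. These lists too were chosen with earlier results of these data known. Among 30 further factors of the large subunit 13 rose, led by Tex10 (1.94, SE 0.20), Grwd1 (1.76, SE 0.18) and Lyar (1.58, SE 0.17). Among 28 further factors of the small subunit 6 rose, and Utp20 (1.08, SE 0.17), Nol11 (0.96, SE 0.09) and Utp3 (0.91, SE 0.05) had the largest changes. Grwd1 lost its call without suffixed probe sets (0.29, limma adjusted p = 0.117). All 30 large-subunit and all 28 small-subunit factors had a change above 0, where 51.4% of all genes did.

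The machinery before and after nucleolar assembly also rose in part. The share that rose was 30.8% for RNA polymerase I, 42.9% for further snoRNP factors, 36.4% for export and 46.2% for exosome genes. Of all genes, 11.3% rose and 10.5% fell. Of 13 measured genes of the RNA polymerase I machinery, 4 rose, led by the subunit gene Polr1e (1.15, SE 0.18), the promoter factor gene Taf1d (0.80, SE 0.07) and Polr1c (0.58, SE 0.08). Without suffixed probe sets, Polr1c had a change of -0.02 and Taf1d lost its call (0.21, limma adjusted p = 0.229). Among 7 further snoRNP and assembly factors 3 rose, namely the H/ACA assembly factor gene Naf1 (1.26, SE 0.24) and the helicase genes Ruvbl2 (1.17, SE 0.18) and Ruvbl1 (0.89, SE 0.17). Among 11 genes for export and cytoplasmic maturation 4 rose, led by Pa2g4 (1.48, SE 0.24), the exportin gene Xpo1 (0.83, SE 0.13) and Zfp622 (0.72, SE 0.09). The change of Zfp622 became -0.04 without suffixed probe sets. In the same list Riok3, Sbds, Efl1 and Eif6 had changes below 0, and none passed. Of 13 exosome and trimming genes 6 rose, led by Exosc1 (1.46, SE 0.13), Exosc5 (0.51, SE 0.09) and the exonuclease gene Xrn2 (0.46, SE 0.08), and C1d, an exosome cofactor, fell by 0.53 on the log2 scale (SE 0.09).

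**Figure D4:**
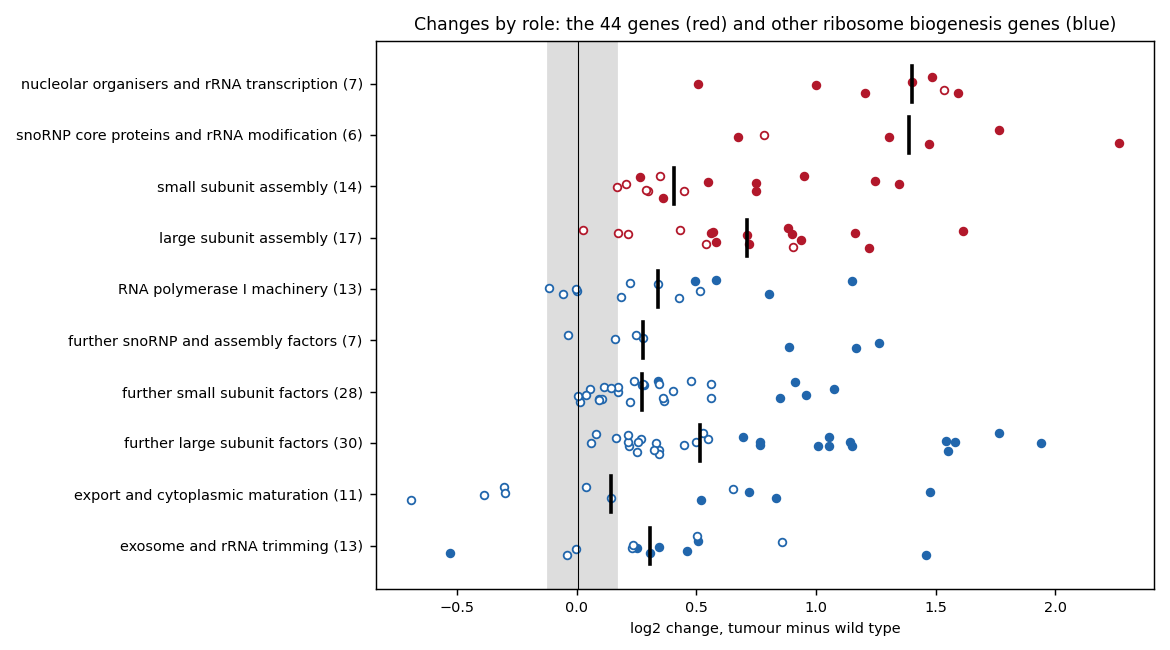
Each point is a gene, with its log2 change, tumour minus wild type, on the axis, and black bars are list medians. The grey band runs from the 25th to the 75th percentile of all 12393 genes, filled points passed an adjusted p of 0.05, and the nucleolar organisers and snoRNP proteins have the medians farthest to the right, at 1.40 and 1.39.

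Myc itself had 7.60, 7.66 and 7.48 in tumours 16, 18 and 2, against 6.25 and 6.70 in wild types 36 and 62. Its log2 change of 1.11 (SE 0.15, limma adjusted p = 0.0174) lay within the range of the genes above. The only probe set of Myc ends in _a_at, so Myc dropped out when suffixed probe sets were left out. Of the 8 genes whose promoter windows are printed above, 6 rose. So did 24 of all 37 measured genes with a promoter entry, and 11.3% of all genes. Among genes with a promoter entry, the E-box stood in 6 of 24 that rose (25%) and in 2 of 13 that did not pass (15.4%). These shares are given as a description, and the difference between them was not tested.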

How the data were processed

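Titles gave the groups, with 3 tumours and 2 wild types, and title numbers serve only as names. The authors deposited log2 signals of 22690 probe sets on 5 Affymetrix arrays. The submitters' processing notes name affy, an R package, without its role, and the background correction, summary method and normalization are not given in the sources used here. After 64 control probe sets were set aside, 20380 probe sets carried 1 gene symbol in GEO's platform annotation, which gave 12393 genes. Differences were fitted with limma 3.58.1 in R 4.3.3 (lmFit, eBayes, group as the only term, 3 residual and 1.23 prior degrees of freedom), two-sided, with Benjamini-Hochberg adjustment over all genes, or over all probe sets where stated. SE is limma's moderated standard error. Values tied within a group occurred in 6864 probe sets. The number of arrays limits the precision.

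Members, roles and lists were chosen with earlier results of these data known. All 44 measured members are named. Array values are given for the 3 called genes of largest change in each role, and for Ncl and Myc, and from each other ribosome assembly list the 3 called genes of largest change and each that fell are named. Riok3, Sbds, Efl1 and Eif6 and the cell type markers were named after their values were seen. The fit was tested on simulated data with normal noise, where it recovered 73.8% of 2-fold changes. Those data held no ties, so the test does not cover the ties in the deposited values. Promoter sequences are RefSeq's (GRCm38.p6).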

Additional observations from a re-analysis of the deposited data

How the results depend on the processing

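The count of 30 genes that rose among the 44 lay between 24 and 37 under quantile normalization, median centring, a filter at the 40th percentile, a trended and robust eBayes, weighted arrays, averaged probe sets, and without probe sets of shared targets or with ties. With a minimum of 2-fold the count among the 44 was 14, with 985 calls over the whole table, 428 of them higher. Leaving out 1 array gave 0 to 30 genes among the 44, 0 to 2380 calls over the whole table and 0 to 1295 higher calls, with limma's pooled spread standing in for a lone wild type. With tied probe sets also left out these ranges were 24 to 36, 1811 to 3399 and 906 to 1839, with 908 higher calls without wild type 62. Without suffixed probe sets 870 genes were higher over the whole table, against 1395, and 45.7% of calls were higher, against 51.8%. The count of genes that fell among the 44 was 0 in all these fits, and the median change lay between 0.62 and 0.87. The change of Ebna1bp2 was -0.0067 with median centring and -0.0085 to 0.044 when 1 array was left out (lowest without tumour 16). That of Polr1c was -0.023 and that of Zfp622 was -0.041 without suffixed probe sets. The causes were not tested. No paired analysis was possible because the tumours came from Apc1638N mice and the normal cells from mice without the allele. With raw intensities not used here, no gene was classed as above or below background.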
